A study of Saccharomyces cerevisiae and Saccharomyces cerevisiae S288C with 30 samples.

Results

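Splicing in budding yeast late in sporulation was compared between 8.5 h and 12 h in sporulation medium, in every splicing event that had a value in both libraries of both times. Of 405 events in the RNA-seq table, 200 met that condition: 112 of 279 annotated introns, 71 of 98 unannotated introns, 14 events with a choice of 3′ splice site (A3SS) and 3 with a choice of 5′ splice site (A5SS). The choice rested on the presence of a value and not on its size. Both groups were cultures of the strain SK1 (labelled SK1 S.cer.), a *Saccharomyces cerevisiae* strain known for efficient sporulation, with no mutation or drug named in the labels, and each had 2 biological replicates. Per the labels, time in the medium was all that set the groups apart. They belong to a series of 6 times (0, 3, 6, 7.5, 8.5 and 12 h), and 2 libraries of a group labelled sk1 came from the same strain. Total RNA was depleted of ribosomal RNA with the Ribo-Zero Gold kit and made into strand-specific libraries, and the 20 libraries of this kind shared a NextSeq lane. These 20 also hold groups labelled dbr1, +rap and -rap, which entered the tests only through the estimate of spread.

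Diploid yeast deprived of nitrogen and of a fermentable carbon source enter meiosis, and then package the haploid nuclei into spores. Introns are few in this genome, and many of them lie in genes for ribosomal proteins, while a smaller set lies in genes that act in meiosis. Mer1, a splicing activator made during meiosis, promotes removal of the introns of several such transcripts, so that intron retention is a known layer of control in this programme. SK1 cultures move through the programme together but not in perfect step. In a culture, a change of splicing within cells and a change in which cells hold a transcript cannot be told apart.

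The deposited value of an event is PSI, a fraction from 0.01 to 1 with 2 decimals. Its definition is not given in the sources used here. Judged by the values, it is the share of transcripts in which an intron is kept: that of ACT1, the actin gene, stood at 0.05 in both sk1 libraries. A higher PSI is therefore written below as higher retention for introns, while for A3SS and A5SS events the direction is unknown and the value is given as it stands. Values after ± are SDs over n = 2 libraries, and coordinates are on sacCer3. Tests are two-sided limma tests on log2 odds of PSI, adjusted by Benjamini-Hochberg and called at an adjusted p under 0.05. For 12 h against 8.5 h the adjustment ran over the 200 events. For other steps and for the difference between steps it ran over the events tested there. No read count comes with a PSI value, so the depth is unknown.

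The libraries differed in how many events had a value. At 8.5 h there were 231 and 234, the former the lowest of the 20 Ribo-Zero libraries, and at 12 h there were 356 and 328. As a result, 90 events, 76 of them annotated introns, had both values at 12 h and none at 8.5 h, against 7 the other way round, and none of these could be compared. The part of this gap in the results was not tested. Among the 200 events, the replicates of a time differed by a median of 0.02 at both times, with the widest gaps at 0.33 (8.5 h) and 0.42 (12 h). The label of the cultures could be checked only by the presence of values, on 15 events of 13 genes that act in meiosis. All 15 had both values at 6 h, 2 had both at 0 h, and 1 had a value in an sk1 library. The 6 h libraries held 363 and 374 values, the latter the highest of the 20 Ribo-Zero libraries, and those of 0 h held 314 and 333. Of the 15 events 7 had values in all 4 libraries compared, so the check says little of the 8.5 h and 12 h labels themselves.

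PSI was higher at 12 h in more events than it was lower. In limma's test 33 events (16.5% of 200) were higher at 12 h and 10 (5.00%) were lower, which makes 43 in either direction (21.5%), while 157 did not pass. The median PSI of the 112 annotated introns went from 0.3725 at 8.5 h to 0.5175 at 12 h, and the median of their differences was 0.045, beside 0.01 over all 200 events. Of the annotated introns 25 rose and 4 fell, and of the unannotated ones 6 rose and 5 fell; the other 2 rises and 1 fall were A3SS events, which say nothing of retention. The largest rises were in SPO1, CIN2 and HNT1 and in an unannotated intron of FMP45, and the largest falls were in DBP2, in an unannotated intron of SIP18 and in RPL34A.

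The counts depended on single libraries. The 33 rises became 20 without 12 h replicate 1 and 19 without 8.5 h replicate 2, and they were 24 without 12 h replicate 2 and 26 without 8.5 h replicate 1. The 10 falls became 5 without either 12 h library, 6 without 8.5 h replicate 1 and 4 without 8.5 h replicate 2. There were 20 events past the threshold whichever of the 4 libraries was left out, 17 rises and 3 falls. Among the events named here, a spread taken from the 4 libraries compared ended the calls of 16, among them CIN2, TAF14, CNB1, IWR1, CQD1, RPS22B, HFM1, SPO22, REC107 and the A3SS event of APE2. Untransformed PSI ended the calls of 8, among them MAY24, HFM1, SPO22, RPS22B and the intron downstream of MSS51.

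**Figure D1:**
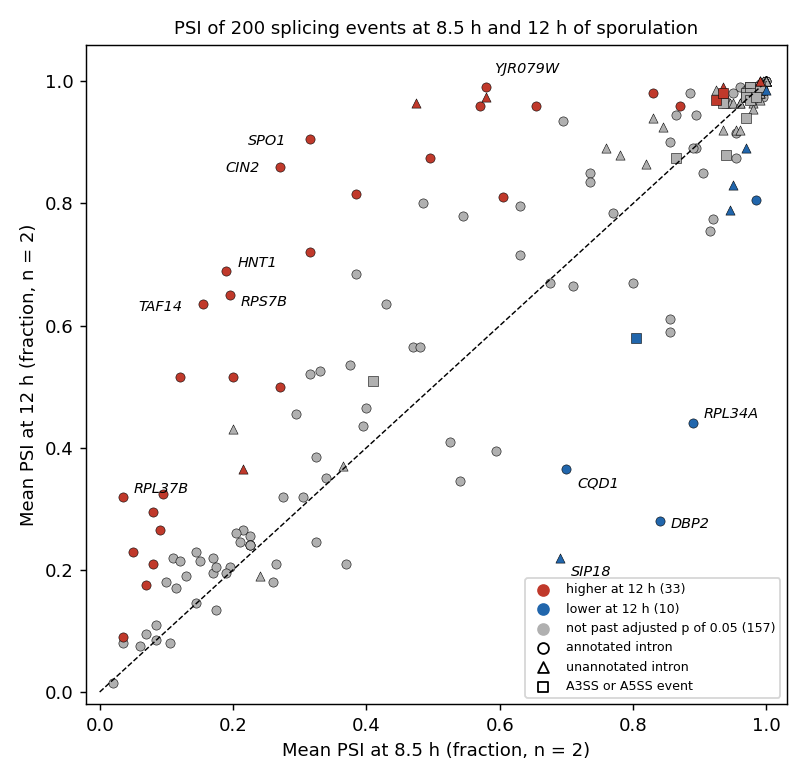
Mean PSI (fraction) at 12 h against mean PSI at 8.5 h in the 200 events, each mean over n = 2 libraries; shape gives the event type, colour the call, and the dashed line marks equal values. The 33 rises lie above the line, many of them from a low PSI at 8.5 h, and the 10 falls lie below it.

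Among genes of meiosis and spore formation, SPO1 changed most. SPO1, which encodes a protein related to phospholipases that acts in meiosis and sporulation, has an intron of 84 bases (chromosome XIV, 609791 to 609874, plus strand). Its PSI was 0.31 and 0.32 at 8.5 h and 0.89 and 0.92 at 12 h. Means were 0.315 ± 0.0071 and 0.905 ± 0.0212, a difference of 4.24 on the log2 odds scale (SE 0.298, adjusted p = 1.14e-05 in limma). The replicates of each time lay within 0.03 of each other, and the groups were far apart. Earlier in the series the intron had been at 0.92 and 0.93 at 0 h, and then between 0.31 and 0.42 in the 6 libraries of 3, 6 and 7.5 h, so the 12 h level was close to that at 0 h.

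LDS2, which encodes a lipid droplet protein made in sporulation, has an intron of 63 bases (chromosome XV, 242442 to 242504, minus strand). PSI was 0.31 and 0.32 at 8.5 h against 0.69 and 0.75 at 12 h (adjusted p = 0.0117 in limma). It had been 0.65 in the 1 library with a value at 3 h and 0.19 to 0.23 in the 4 libraries of 6 and 7.5 h, so the 12 h level was near that at 3 h. The groups did not overlap, but the call was lost without any one of the 4 libraries, with an adjusted p of up to 0.0684.

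Introns whose removal Mer1 is known to promote lie in HFM1, SPO22, REC107 and AMA1. Of 5 events in these genes 3 rose and none fell, beside 16.5% higher and 5.00% lower over all 200 events, and their median PSI difference was 0.09 beside 0.01. However, 4 of the 5 were annotated introns, and 22.3% of all annotated introns rose, with a median difference of 0.045. Among annotated introns of at most 150 bases these were 33.3% and 0.065. The remaining event is an A5SS event, whose direction is unknown. HFM1, also known as MER3, encodes a helicase of crossover formation. Its intron (chromosome VII, 31427 to 31578) went from 0.84 and 0.82 to 0.97 and 0.99 (adjusted p = 0.00796 in limma), lost without replicate 2 of either time (adjusted p up to 0.0544) and on untransformed PSI (adjusted p = 0.17, the highest over its alternatives, with 0.0033 the lowest). SPO22 encodes a protein of the complex that stabilises crossover intermediates, and its PSI went from 0.91 and 0.83 to 0.97 and 0.95 (adjusted p = 0.0244 in limma). Most of the climb of SPO22 came earlier, from 0.25 and 0.27 at 6 h to 0.63 and 0.69 at 7.5 h, and its call was lost without 12 h replicate 1 or 8.5 h replicate 2 (adjusted p up to 0.14).

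REC107, also known as MER2, is needed for the double-strand breaks of meiosis. Its PSI was 0.64 and 0.57 at 8.5 h and 0.80 and 0.82 at 12 h (adjusted p = 0.0492 in limma). At 0 h it had been at 0.91 and 0.92 and from 3 to 7.5 h between 0.71 and 0.78, so the 8.5 h libraries were the low ones and 12 h stood below 0 h. The 8.5 h and 12 h values did not overlap, but leaving out any one library ended the call, with an adjusted p of up to 0.225. AMA1, an activator of the anaphase-promoting complex in meiosis, stood the other way, at 0.37 and 0.37 at 8.5 h and 0.19 and 0.23 at 12 h. The AMA1 difference did not pass (adjusted p = 0.0583 in limma), although it passed under 3 of the alternative settings, with adjusted p from 0.0335 to 0.214 over all of them. Its A5SS event was near the ceiling at both times, at 0.98 and 0.99 and then 0.99 and 0.96.

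SAE3, which acts in strand exchange during meiotic recombination, was at 0.46 and 0.59 at 8.5 h and at 0.37 and 0.45 at 12 h, and did not pass (adjusted p = 0.358 in limma). Over the meiotic list as a whole 7 of 15 events could be compared, of which 4 rose (SPO1, HFM1, SPO22 and REC107), 3 did not pass and none fell. Over all 200 events 16.5% were higher and 5.00% lower. Of all annotated introns 22.3% were higher, and of those of at most 150 bases 33.3%. The median difference of the 7 events, 6 of them annotated introns, was 0.09. It was 0.045 in all annotated introns and 0.065 in those of at most 150 bases. The list holds the Mer1 targets, so its count is not separate from theirs.

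**Figure D2:**
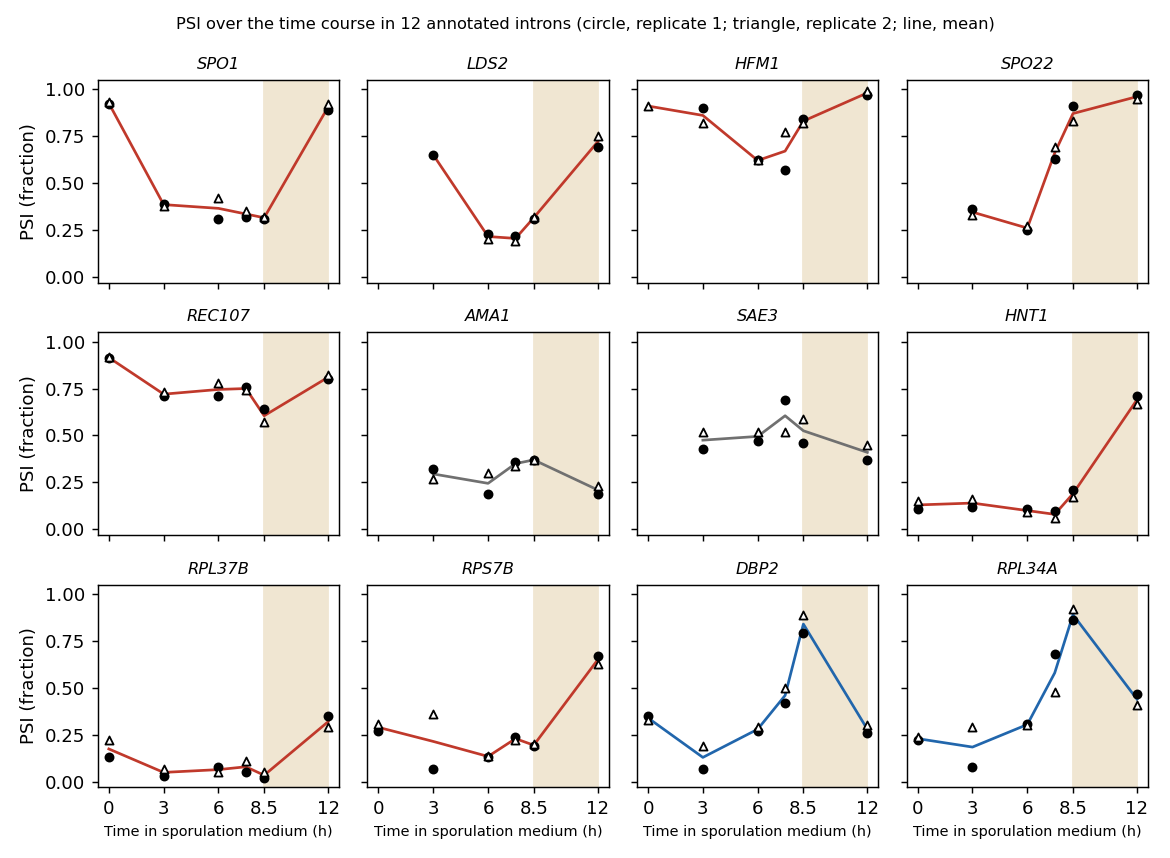
PSI (fraction) against hours in sporulation medium in 12 annotated introns, with each replicate as a point, the mean as a line and the span from 8.5 h to 12 h shaded; red lines mark rises, blue lines falls and grey lines introns not past the threshold. SPO1 returned at 12 h to 0.89 and 0.92, close to its 0 h values, while DBP2 and RPL34A were highest at 8.5 h.

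Outside the meiotic genes, rises were found in genes of many cellular processes. HNT1, a nucleotide hydrolase of the histidine triad family, had the lowest adjusted p after SPO1 and YJR079W. Its intron of 111 bases (chromosome IV, 239399 to 239509, minus strand) was at 0.21 and 0.17 at 8.5 h and at 0.71 and 0.67 at 12 h (difference 3.17 log2 odds, SE 0.31, adjusted p = 1.39e-05 in limma). In the 8 libraries before 8.5 h the HNT1 intron lay between 0.06 and 0.16, so 12 h stood above every other time.

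TAF14 encodes a subunit shared by the general transcription factor TFIID and several chromatin complexes. Its intron (chromosome XVI, 305307 to 305411) was at 0.19 and 0.12 at 8.5 h and at 0.77 and 0.50 at 12 h, with the 12 h replicates 0.27 apart (adjusted p = 0.00449 in limma). The TAF14 call was lost where the spread came from the 12 time course libraries (adjusted p = 0.0909) or from the 4 libraries compared (adjusted p = 0.127), the latter being the highest over its alternatives and 0.0018 the lowest. IWR1, which guides RNA polymerase II into the nucleus, went from 0.52 and 0.47 to 0.94 and 0.81 (adjusted p = 0.00888 in limma), a call lost without 12 h replicate 1 or 8.5 h replicate 2.

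CNB1, the regulatory subunit of the phosphatase calcineurin, was at 0.36 and 0.41 at 8.5 h and at 0.86 and 0.77 at 12 h (chromosome XI, 82999 to 83074; adjusted p = 0.0018 in limma). YML6, a protein of the large subunit of the mitochondrial ribosome, went from 0.12 in both libraries to 0.53 and 0.50 (adjusted p = 0.0117 in limma), a call lost without any one library. MAY24 rose from 0.47 and 0.67 to 0.96 in both libraries (adjusted p = 0.0183 in limma), also a call lost without any one library. In each of these introns, and in 73 of all 200 events, both 12 h values lay above both 8.5 h values.

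YJR079W, an open reading frame whose function is not described here, had the lowest adjusted p of all 200 events. Its annotated intron of 705 bases (chromosome X, 580348 to 581052, plus strand) was at 0.57 and 0.59 at 8.5 h and at 0.99 in both 12 h libraries (difference 5.19 log2 odds, SE 0.346, adjusted p = 5.18e-07 in limma). It had been between 0.95 and 1 at all 4 earlier times. The 8.5 h libraries were thus the low ones in this intron, rather than the 12 h libraries high. An annotated intron lying downstream of MSS51 (chromosome XII, 550459 to 550574, minus strand) went from 0.76 and 0.55 to 0.96 in both libraries (adjusted p = 0.00257 in limma).

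Genes of the cytoskeleton gave 6 introns, of which 2 rose, none fell, and the median difference was 0.1675. Of all annotated introns 22.3% rose, with a median difference of 0.045. CIN2, which acts in the folding of tubulin, was at 0.39 and 0.15 at 8.5 h and at 0.91 and 0.81 at 12 h (chromosome XVI, 96154 to 96233; adjusted p = 0.00592 in limma). Replicates of CIN2 were 0.24 apart at 8.5 h, and without 12 h replicate 1 or 8.5 h replicate 2 its adjusted p rose to as much as 0.0571. PFY1, the actin-binding protein profilin, was at 0.08 and 0.10 and then at 0.26 and 0.27 (adjusted p = 0.0116 in limma), lost without either 12 h library or without 8.5 h replicate 1 (adjusted p up to 0.0723). ACT1 itself was at 0.06 and 0.08 at 8.5 h and at 0.08 and 0.11 at 12 h, and the groups overlapped.

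In the secretory pathway 2 of 5 introns rose and none fell. YIP3, a protein of vesicles between the endoplasmic reticulum and the Golgi, went from 0.20 in both libraries to 0.53 and 0.50 (adjusted p = 0.00397 in limma), and had been at 0.32 and 0.51 at 0 h. SEC17, the alpha-SNAP of membrane fusion, was at 0.09 and 0.07 and then at 0.33 and 0.26 (adjusted p = 0.00159 in limma). Of 7 events in genes of ubiquitin, ubiquitin-like proteins and the proteasome 2 rose and none fell: UBC9, the SUMO-conjugating enzyme, went from 0.09 and 0.10 to 0.36 and 0.29, and PRE3, a proteasome subunit, from 0.04 and 0.03 to 0.09 in both libraries. UBC9 had been at 0.76 in the 1 library with a value at 0 h. The PRE3 call was lost without 8.5 h replicate 2 (adjusted p = 0.0769). Among 3 introns of the mitochondrial list 1 rose, that of YML6. These lists are small and hold annotated introns alone, and their counts stand beside 16.5% of all 200 events and 22.3% of all annotated introns higher. Their median lengths were 113 (secretory pathway), 116 (ubiquitin and proteasome) and 99 bases (mitochondria). Among annotated introns of at most 150 bases 33.3% were higher.

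**Figure D3:**
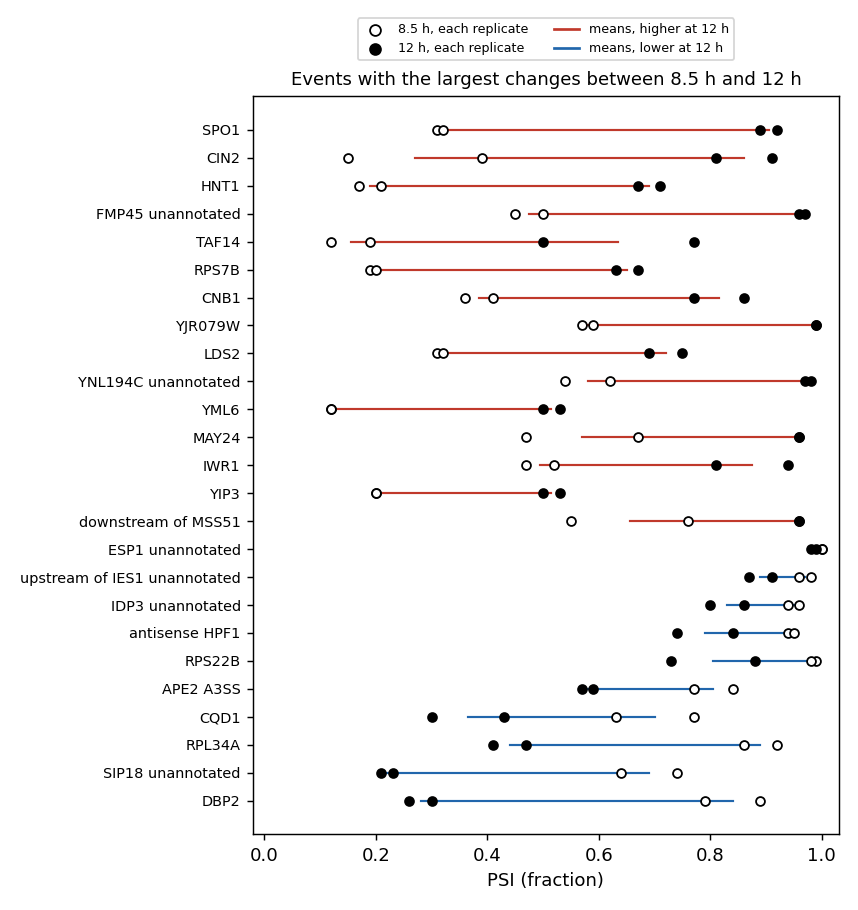
PSI (fraction) of each replicate at 8.5 h (open circles) and 12 h (filled circles) in the 15 largest rises and all 10 falls, ordered by the difference of the means, which the coloured line joins. In every one of these 25 events, all picked from those past the threshold, the replicates of one time lay apart from those of the other. Over all 200 events both 12 h values lay above both 8.5 h values in 73 and below them in 29.

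Ribosomal protein genes gave 34 of the 200 events, from 115 in the table. Of these 6 rose (17.6%, close to the 16.5% over all 200 events) and 2 fell, with a median difference of 0.0275, and among their 23 annotated introns 3 rose and 2 fell. The 89 annotated introns of other genes held 22 rises and 2 falls. RPS7B, a protein of the small subunit, went from 0.19 and 0.20 to 0.67 and 0.63 (chromosome XIV, 443827 to 444171; adjusted p = 0.00521 in limma). RPS23B, also of the small subunit, was at 0.07 in both libraries and then at 0.18 and 0.17 (adjusted p = 0.00521 in limma).

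Paralogous pairs of ribosomal protein genes did not always have the same values. RPL37B, of the large subunit, was at 0.02 and 0.05 at 8.5 h and at 0.35 and 0.29 at 12 h (chromosome IV, 1450458 to 1450846; difference 3.45 log2 odds, SE 0.487, adjusted p = 3.53e-04 in limma). Its copy RPL37A was at 0.14 and 0.24 and then at 0.22 and 0.17, and its groups overlapped. RPL34A fell from 0.86 and 0.92 to 0.47 and 0.41 (chromosome V, 269752 to 270148; adjusted p = 0.00392 in limma), while RPL34B was at 0.40 and 0.68 and then at 0.30 and 0.39 and did not pass (adjusted p = 0.223 in limma). The difference between copies was not tested, and how reads of near-identical exons were assigned to them is not given, so the values of such pairs are uncertain.

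RPS22B, a protein of the small subunit whose gene hosts a small nucleolar RNA, fell from 0.99 and 0.98 to 0.73 and 0.88 (adjusted p = 0.0122 in limma). At 0, 3 and 6 h its intron had been at 1 in all 6 libraries. The call ended without 12 h replicate 1 or without either 8.5 h library (adjusted p up to 0.112). RPS22B was the 1 change among 4 introns of genes that host small nucleolar RNAs, the other 3 of which did not pass. This count stands beside 21.5% changed in either direction over all 200 events.

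Falls were fewer, and the largest was in DBP2. This gene encodes a DEAD-box RNA helicase whose own long intron is known to limit its expression. The intron of 1002 bases (chromosome XIV, 414912 to 415913, plus strand) was at 0.79 and 0.89 at 8.5 h and at 0.26 and 0.30 at 12 h. Means were 0.84 ± 0.0707 and 0.28 ± 0.0283, a difference of -3.72 log2 odds (SE 0.516, adjusted p = 3.53e-04 in limma). In the 8 libraries before 8.5 h its PSI was between 0.07 and 0.50, so both 8.5 h values lay above every other value of the series.

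CQD1, which takes part in the distribution of coenzyme Q from mitochondria, fell from 0.77 and 0.63 to 0.43 and 0.30 (chromosome XVI, 345445 to 345596; adjusted p = 0.00629 in limma). As in DBP2 and RPL34A, both 8.5 h values of CQD1 were above all values of the other times. Its call was lost without 12 h replicate 2 or 8.5 h replicate 1 (adjusted p up to 0.065).

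Unannotated introns mostly lay near the ceiling of PSI, with a median of 0.985 at both times, and 6 of 71 rose and 5 fell. The largest rises were in FMP45 and YNL194C, which encode related membrane proteins of the Sur7 family. The FMP45 event (chromosome IV, 60479 to 61787, minus strand, 1309 bases) went from 0.50 and 0.45 to 0.96 and 0.97 (adjusted p = 0.00104 in limma). The YNL194C event (chromosome XIV, 272388 to 273601, minus strand, 1214 bases) went from 0.54 and 0.62 to 0.97 and 0.98 (adjusted p = 2.86e-04 in limma). At 0 h FMP45 had been at 0.94 and 0.92, close to its 12 h values, and YNL194C at 0.87 and 0.70. In both, the 12 h values were above every other time, and neither call depended on a single library.

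SIP18, a small hydrophilic protein of desiccation tolerance, held the second largest fall. Its unannotated intron (chromosome XIII, 610808 to 611036, plus strand) went from 0.74 and 0.64 to 0.23 and 0.21 (difference -2.93 log2 odds, SE 0.41, adjusted p = 4.49e-04 in limma). Over the series it had been lowest at 0 h before this, at 0.44 and 0.33, so the 12 h values were below every earlier one. Smaller falls in unannotated introns were those antisense to HPF1 (0.94 and 0.95 to 0.84 and 0.74), in IDP3, a peroxisomal isocitrate dehydrogenase (0.94 and 0.96 to 0.86 and 0.80), upstream of IES1 (0.96 and 0.98 to 0.87 and 0.91) and in ESP1, the separase of chromosome segregation (1 in both libraries to 0.98 and 0.99). Each of these 4 calls was lost without at least one library. Among all 43 calls 3 had a PSI difference of at most 0.015, close to the 0.01 step of the table.

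Of 14 A3SS events 2 rose and 1 fell, and none of 3 A5SS events passed. APE2, an aminopeptidase, had the A3SS event that fell (chromosome XI, 155272 to 155636), from 0.77 and 0.84 to 0.57 and 0.59 (adjusted p = 0.0122 in limma). It had been at 0.97 and 0.99 at 7.5 h and between 0.45 and 0.70 before that. Leaving out either 12 h library or 8.5 h replicate 2 ended this call (adjusted p up to 0.121).

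Genes with well-studied regulated introns gave 9 events, of which 1 rose, 1 fell (DBP2) and 7 did not pass, with a median difference of 0. Over all 200 events 21.5% changed in either direction, so this count is close to that share. The rise was in an unannotated intron of RPL30, whose protein binds its own transcript, from 0.93 and 0.94 to 0.99 in both libraries (adjusted p = 0.00392 in limma), after values of 0.99 to 1 up to 6 h. RPL22B, a large-subunit gene, was at 0.87 and 0.90 and then at 0.98 in both libraries (adjusted p = 0.0963 in limma, from 0.022 to 0.584 over its alternatives). HAC1, whose intron is removed by Ire1 and not by the spliceosome, was at 0.99 and 1 and then at 0.99 and 0.96.

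YRA1, an mRNA export adaptor, was at 0.24 and 0.28 at 8.5 h and at 0.19 and 0.17 at 12 h. RPL28 was at 0.17 and 0.12 and then at 0.21 and 0.25. PTC7, a phosphatase gene whose intron can be kept in the coding frame, was at 0.86 and 0.92 and then at 0.92 and 0.86. None of RPL22B, HAC1, YRA1, RPL28 and PTC7 passed the test. Among 10 events of genes for mRNA export and splicing factors, DBP2 was the 1 change, beside 21.5% changed in either direction over all 200 events. The median difference was 0, but the unannotated introns of NPL3 and LSM2 and the A5SS event of LSM2 were at 0.98 or above in all 4 libraries.

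The largest differences that did not pass were in TFC3, SPT14, YBL111C and YHR218W. TFC3, a subunit of the RNA polymerase III factor TFIIIC, was at 0.49 and 0.48 and then at 0.91 and 0.69 (adjusted p = 0.0787 in limma). SPT14, an enzyme of glycolipid anchor synthesis, was at 0.45 and 0.32 and then at 0.61 and 0.76. YBL111C and YHR218W lie in repeated elements near chromosome ends and had almost the same values in each library, at 0.80 and 0.91 against 0.79 and 0.92 at 8.5 h and at 0.73 and 0.45 against 0.77 and 0.45 at 12 h. Such introns share reads with near-identical copies and are not separate measurements. Some other introns near chromosome ends also had the same or almost the same values as one another. All of them were counted as separate events in the totals and shares given here.

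Short introns held most of the rises. Of 57 annotated introns of at most 150 bases 19 rose and none fell, with a median difference of 0.065, while of 55 longer ones 6 rose and 4 fell, with a median difference of 0.03. The risen annotated introns had a median length of 105 bases and the fallen ones of 440, beside 148 over all 112. No annotated intron of a ribosomal protein gene was as short as 150 bases, so length and this gene class go together. Without those genes, 32 longer introns held 3 rises and 2 falls. The starting level differed too. At 8.5 h the median PSI was 0.315 in the shorter introns, 0.47 in the longer ones and 0.6375 in these 32. Length and starting level were not separated. Just above the limit were HFM1 and CQD1, both of 152 bases, of which the former rose and the latter fell.

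**Figure D4:**
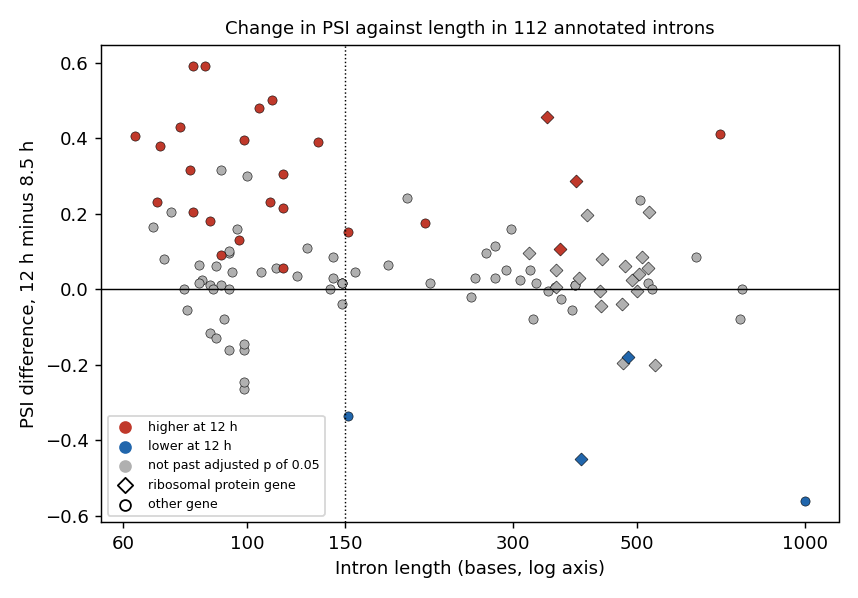
Difference in mean PSI (12 h minus 8.5 h) against intron length in bases, on a log axis, in the 112 annotated introns; diamonds are ribosomal protein genes, colour gives the call, and the dotted line stands at 150 bases. Left of the line 19 introns rose and none fell, and right of it 6 rose and 4 fell.

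Grouped by their level at 8.5 h, which is itself part of the difference, 66 annotated introns under 0.5 held 19 rises and no fall, and 46 at or above 0.5 held 6 rises and 4 falls. Another 64 events of all types were at 0.95 or above in all 4 libraries, where 2 rose and 1 fell. These groupings describe where the changes lay and were given no test.

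The step from 8.5 h to 12 h was set beside the steps before it. From 7.5 h to 8.5 h, which shares the 8.5 h libraries with the comparison above, 3 of 202 events (1.49%) were higher at the later time and 4 (1.98%) were lower, 3.47% in either direction. From 6 h to 7.5 h, which shares none, 23 of 235 (9.79%) were higher and 16 (6.81%) lower, 16.6% in either direction. At 12 h both values were above all other values of the time course in 29 of the 200 events, 20 of them among the 33 rises. Some of the 29 had few earlier values to exceed, such as TAF14 and YML6 with 4, where a full series has 10. The rises were also chosen for higher values at 12 h than at 8.5 h.

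Whether an event changed differently from 8.5 h to 12 h than from 6 h to 7.5 h was tested directly in 181 events, without shared libraries, although these steps differ in length. The change was more positive in the later step in 36 events (19.9%) and more negative in 18 (9.94%), 54 in all (29.8%). Of 38 changes between 8.5 h and 12 h that could be tested in this way, 28 passed with the same sign: 23 of 30 rises and 5 of 8 falls. These 38 were chosen on the later step, which is part of the difference tested, so their sign was largely fixed by that choice and the count is a description. SPO1 changed by 0.59 in the later step and by -0.03 in the earlier one (adjusted p = 7.80e-05 for the difference, limma), and HNT1 by 0.50 and -0.02 (adjusted p = 1.04e-04 in limma).

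Both rises and falls could have opposite signs in the steps. The unannotated intron of YNL194C changed by 0.395 in the later step and by -0.185 in the earlier one (adjusted p = 5.33e-04 in limma), and UBC9 by 0.23 and -0.16 (adjusted p = 5.33e-04 in limma). DBP2 changed by -0.56 in the later step and by 0.18 in the earlier one (adjusted p = 5.33e-04 in limma), RPL34A by -0.45 and 0.275 (adjusted p = 0.00217 in limma), and the A3SS event of APE2 by -0.225 and 0.41 (adjusted p = 7.42e-06 in limma). AMA1, which did not pass between 8.5 h and 12 h, did so here, with -0.16 against 0.105 (adjusted p = 0.0296 in limma). RPL28 passed as well, with 0.085 against -0.14 (adjusted p = 0.00363 in limma).

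For other events the steps could not be distinguished. SIP18 changed by -0.47 and -0.35 (adjusted p = 0.478 in limma), SPO22 by 0.09 and 0.40 (adjusted p = 0.347 in limma), and the intron downstream of MSS51 by 0.305 and 0.285 (adjusted p = 0.306 in limma). RPS7B, at 0.455 and 0.095, did not pass either (adjusted p = 0.115 in limma), nor did REC107, at 0.205 and 0.005 (adjusted p = 0.146 in limma).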

How the data were processed

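The authors deposited PSI as a fraction per event and library in 1 table for 26 libraries. TopHat, TopHat2, Bowtie and sacCer3 are named in the submitters' processing notes, without versions. How PSI was computed is not given in the sources used here; the sheet name carries a minimum of 50, whose meaning is not stated. Events were placed on genes by position and strand in the RefSeq R64 annotation: 166 of 200 lay on a gene of the same strand (151 genes), 6 beside a gene, 16 antisense to one, 4 outside genes and 8 over rDNA repeats. The rDNA spans, of 9138 bases, are counted among the unannotated introns. Each had PSI of 1 in the 4 libraries compared, although some lay lower up to 6 h, down to 0.46 at 0 h.

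PSI was taken to log2((PSI + 0.01)/(1 − PSI + 0.01)). A mean per group was fitted over the 20 Ribo-Zero libraries with limma 3.58.1 in R 4.3.3, checked on simulated data. The spread thus came from the time course and also from the groups labelled sk1, dbr1, +rap and -rap. Events with values in all 4 libraries compared were tested. With no read counts, no counting interval could be given. The events named are up to 15 of the largest rises and of the largest falls past the threshold, all meiotic and Mer1 events, a set of well-studied introns, and the 4 largest differences that did not pass; UBC9, SEC17, PFY1, PRE3, RPS23B, RPL37A, RPL37B and RPL34B were chosen after their values were seen. Members and gene lists were chosen with earlier results of these data known. Alternatives were another offset, untransformed PSI, the spread over 12 or 4 libraries, trended or robust moderation, a filter on extreme PSI, annotated introns alone, each library left out, and the replicate number as a block. No sequence is printed.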

Additional observations from a re-analysis of the deposited data

How the results depend on the processing

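Leaving out 1 library at a time gave 19 to 26 rises in place of 33, 4 to 6 falls in place of 10, and 36 to 43 events past in the difference between steps in place of 54; a time left with 1 library was assumed to vary like the others. Annotated introns tested alone gave 27 rises and 4 falls, over fewer events. The other alternatives kept both counts within 1.5 times, but similar counts did not mean the same events. A spread from the 4 libraries compared gave 27 rises and 7 falls, yet it ended the calls of 16 of the named events. Whether replicate numbers pair the libraries cannot be told from a correlation across events. Replicate 1 deviations at 8.5 h and 12 h had r = -0.196 across 200 events, and over the 15 pairs of times r lay between -0.345 and 0.257. With the replicate number as a block there were 31 rises and 9 falls over 20 libraries, 29 and 9 over 12 libraries, and 51 and 43 in the difference between steps. A crossed block, chosen after seeing the data, gave 31 and 8. Over all alternatives for the named events, whether an event was called stayed the same in 523 fits. A call was lost in 87 fits and gained in 7. The 523 include fits of events that were not called and stayed so, since only 29 of the named events were called. No called event reversed direction, while the A5SS event of AMA1, not called, did so without 12 h replicate 2. The median difference of annotated introns, 0.045, ranged from 0.035 to 0.055 without single libraries. Depth per event is unknown, which limits the precision that can be stated.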

Other observations

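Meiotic introns outside the comparison had values at other times. REC114, needed for the double-strand breaks of meiosis, was at 0.24 and 0.25 at 6 h, had no value at 7.5 h or 8.5 h, and was at 0.75 and 0.77 at 12 h. MND1, which acts in meiotic strand exchange, was at 0.52 and 0.45 at 6 h and at 0.96 and 0.95 at 12 h, with no value between. REC102, another gene of double-strand break formation, was at 0.19 and 0.28 at 6 h, 0.84 and 0.83 at 7.5 h, 0.77 and 0.92 at 8.5 h and 0.93 in the 1 library with a value at 12 h. DMC1, the meiotic recombinase, was at 0.12 and 0.15 at 6 h and had no value at 8.5 h or 12 h. None of these was tested between 8.5 h and 12 h.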
